A study of Mus musculus with 4 samples.

Results

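The 9 genes described here encode the cell-bound proteins that start or restrain clotting, the activators of fibrinolysis and the 3 chains of fibrinogen, as they were read in mouse kidney. They are F3, Thbd, Procr, Plat, Plau, Plaur, Fga, Fgb and Fgg, taken by name from a table of 38924 genes, and all 9 were found in every library. Kidney RNA came from female CB-17 SCID mice on a Balb/c background, a strain without functional B and T cells that keeps its macrophages, neutrophils and platelets. One group received saline and the other immune complexes of IgG with galactose-deficient IgA1 (Gd-IgA1), the antigen in IgA nephropathy, in both cases by tail vein, 3 times within 7 days, and the tissue was collected on the day after the last injection. There were 2 saline and 2 immune complex libraries, each from part of 1 kidney, and the labels state no age for the animals. The labels do not state that every library came from its own animal, so the p-values measure only the spread between these samples.

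Clotting begins when tissue factor, the product of F3, binds factor VIIa on a cell surface and thrombin is formed. Thrombin cuts fibrinogen into fibrin, and thrombin held by thrombomodulin instead activates protein C, a step that the endothelial protein C receptor speeds up. Fibrin is removed by plasmin, which the tissue-type and urokinase-type activators release from plasminogen. In kidney, urokinase is a known product of tubular epithelium, whereas most plasma clotting factors and fibrinogen are made by hepatocytes.

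The libraries held 19675879 to 22791960 gene reads. The defining markers of proximal tubule, thick ascending limb, endothelium and podocytes fixed for the check were read in all libraries, with none of them under 10 reads over the 4 libraries. Values called CPM are counts per 1000000 reads, scaled by edgeR's TMM factors, and serve to compare libraries for the same gene. RPKM values are the authors' own, scaled by exon length and library total, and serve to compare genes. In bulk tissue, fewer cells of a type and less RNA per cell cannot be told apart. Between the groups, edgeR's quasi-likelihood test with Benjamini-Hochberg adjustment over 16334 genes called 0 genes at 0.05, a share of 0%. Unadjusted p-values under 0.05 were found for 749 genes, 4.59% of those tested. DESeq2 called 93 genes (0.544%) and limma-voom 0.

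Tissue that surrounds or lines the kidney was read unevenly. Of 9 adipocyte markers 9 had higher estimates in the immune complex group (median 2.13), and Adipoq, the adiponectin gene, was at 0.148 CPM in saline replicate 1 and 24.9 CPM in saline replicate 2, against 87.8 and 78.6 CPM in the immune complex libraries. Of 9 tested urothelium and mesothelium markers 7 had lower and 2 higher estimates (median -1.46), and the list of 10 summed to 83.4 and 102.2 CPM in the saline group, against 28.4 and 29.5 CPM in the immune complex group. Within the kidney, all 8 principal cell markers had lower estimates (median -0.72), with saline replicate 1 far above the other libraries. They summed to 2260.5 and 879.8 CPM in the saline group, against 795.4 and 621.2 CPM in the immune complex group. None of these markers passed the test in edgeR. What part they have in the values of the clotting genes was not tested.

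None of the 9 genes passed the test in edgeR, DESeq2 or limma-voom, and none had an unadjusted p under 0.05 in any of these. Fgb had too few reads to be tested in edgeR, and each of the other 8 had an adjusted p of 0.99997. Their fitted log2 differences, immune complex over saline, ran from -0.57 for Plaur to 0.57 for Fga with a median of 0.04, while the median of all tested genes was 0.01. Of the 8, 5 had positive and 3 negative estimates, and 51.9% of all tested genes had positive ones. The 2 groups of libraries did not overlap for 3 of them, with Thbd higher and F3 and Plaur lower. Groups that do not overlap were found for 30.0% of all tested genes (15.4% higher and 14.6% lower), so the share among the 8 is near the background.

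**Figure D1:**
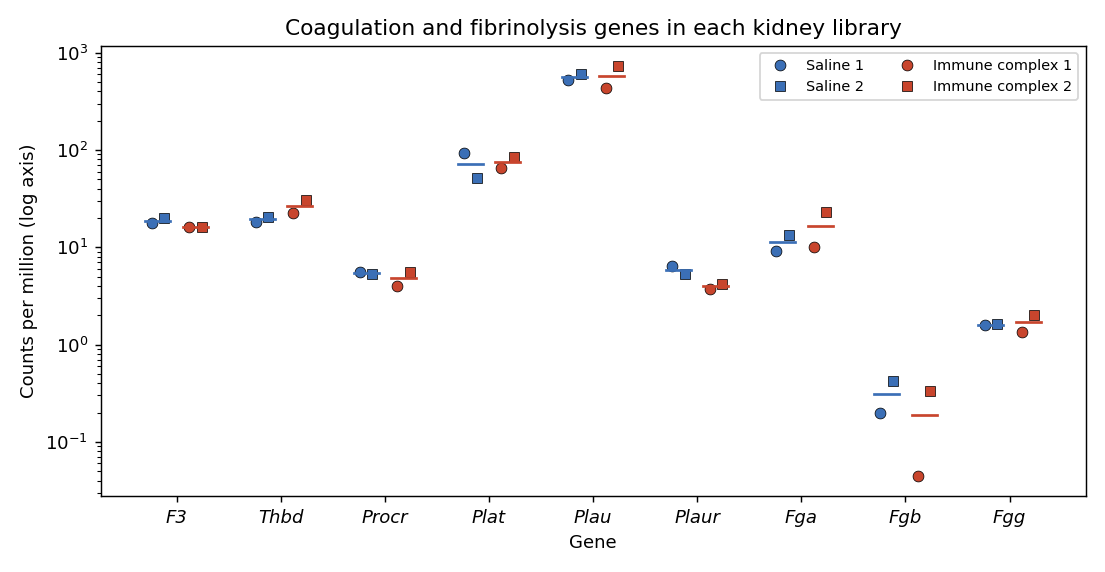
CPM (log axis) of the 9 genes in the 2 saline (blue) and 2 immune complex libraries (red); circles are replicate 1, squares replicate 2 and lines group means. Plau sits highest, at 430.9 to 721.8 CPM, Fgb lowest, at 0.0448 to 0.426 CPM, and the 2 groups are apart for F3, Thbd and Plaur.

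Per kilobase of exon, the 9 genes covered a wide range in kidney. Plau stood at 229.3 and 259.7 RPKM in the saline libraries, against 178.2 and 297.8 RPKM in the immune complex libraries, above at least 98.3% of the tested genes in each library. Plat came next, at 37.9 and 20.1 RPKM in the saline libraries, against 25.1 and 32.3 RPKM in the immune complex libraries. F3 (8.06 to 10.6 RPKM) and Thbd (5.02 to 8.08 RPKM) followed, above the median tested gene, which stood at 3.52 to 3.95 RPKM. The order of these 2 neighbours was the same in 3 libraries, whereas in immune complex replicate 2 Thbd (8.08 RPKM) and F3 (8.06 RPKM) were level. Fga ranged from 2.77 to 6.73 RPKM, Plaur from 2.23 to 4.37 RPKM and Procr from 1.90 to 2.78 RPKM, and the ranges of these 3 overlap. Fgg (0.589 to 0.877 RPKM) and Fgb (0.0267 to 0.203 RPKM) were last, and their ranges were apart from each other and from those of the other genes.

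The start of clotting was represented by F3, which lies on chromosome 3 (GRCm38, 121723537 to 121735052, plus strand, 6 exons). It stood at 17.6 and 19.96 CPM in saline libraries 1 and 2, against 16.2 and 16.1 CPM in immune complex libraries 1 and 2. Both immune complex libraries were below both saline libraries, by little. The means were 18.8 ± 1.70 CPM and 16.1 ± 0.109 CPM (SD, n = 2 each), and the log2 difference was -0.22 ± 0.19 (SE; edgeR adjusted p = 0.99997), with a 95% interval of -0.67 to 0.24. The partners of tissue factor in the extrinsic pathway were sparsely read. F7, whose product binds tissue factor, had 1 and 1 reads in the saline libraries, against 4 and 2 reads in the immune complex libraries. F10, the substrate of that complex, had 4, 8, 5 and 6 reads, and neither gene had enough reads for the test. Tfpi, which encodes the inhibitor of the tissue factor complex, stood at 7.13 and 5.39 CPM in the saline libraries, against 7.13 and 6.19 CPM in the immune complex libraries (log2 difference 0.09 ± 0.27).

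On the anticoagulant side, Thbd encodes thrombomodulin and lies on chromosome 2 (148404471 to 148408188, minus strand) as a gene of 1 exon. Thbd stood at 18.1 and 20.6 CPM in the saline libraries, against 22.3 and 30.8 CPM in the immune complex libraries. Both immune complex values were above both saline values, and the 2 immune complex libraries were further from each other than the 2 saline ones. The means were 19.3 ± 1.82 and 26.5 ± 5.97 CPM, a log2 difference of 0.46 ± 0.22 (SE; unadjusted p = 0.0814, adjusted p = 0.99997 in edgeR), with a 95% interval of -0.08 to 0.99. Without immune complex replicate 2 the estimate was 0.21, and without immune complex replicate 1 it was 0.67 (edgeR adjusted p = 0.197). Procr, which encodes the endothelial protein C receptor, lies on the same chromosome (155751117 to 155755471, plus strand). Procr stood at 5.56 and 5.30 CPM in the saline libraries, against 3.99 and 5.62 CPM in the immune complex libraries, with immune complex replicate 2 above both saline values (log2 difference -0.18 ± 0.29, 95% interval -0.87 to 0.52).

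The 2 genes of the protein C pathway thus had estimates of opposite sign, neither past the test. The ratio of Thbd to Procr in RPKM was 1.81 and 2.19 in the saline libraries, against 3.09 and 3.07 in the immune complex libraries. The ratio of Thbd to F3 in RPKM was 0.529 and 0.530 in the saline libraries, against 0.718 and 1.001 in the immune complex libraries. Both ratios were higher in the 2 immune complex libraries than in either saline library. They were chosen with the values known and are given as descriptions, without a test. Proc, the gene of protein C itself, was read at 55.2 and 77.0 CPM in the saline libraries, against 74.3 and 62.8 CPM in the immune complex libraries, and Pros1, which encodes its cofactor protein S, at 22.1 and 21.9 against 23.6 and 28.3 CPM. Pros1 was higher in both immune complex libraries, with a log2 difference of 0.24 ± 0.19 (edgeR adjusted p = 0.99997).

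Thbd and Procr are known from endothelium, and the endothelial marker list was read beside them. All 12 of its genes were tested, of which 4 had higher and 8 lower estimates, with a median log2 difference of -0.19. Groups did not overlap for 1 higher and 4 lower genes, beside 15.4% and 14.6% of all tested genes. The summed level of the list was 766.5 and 628.9 CPM in the saline libraries, against 650.6 and 576.1 CPM in the immune complex libraries. Thbd therefore had the opposite sign to the median of that list, and F3 and Procr the same sign. Podocytes are another known site of tissue factor, and all 8 podocyte markers had higher estimates, with a median of 0.18. Groups did not overlap for 3 of them, all higher, beside 15.4% of all tested genes. Their summed levels were 460.6 and 436.3 CPM in the saline libraries, against 592.3 and 435.8 CPM in the immune complex libraries. The part of either cell type in these values was not tested.

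Among the activators of fibrinolysis, Plau, the gene of urokinase, lies on chromosome 14 (20836662 to 20843388, plus strand, 11 exons). Plau stood at 524.1 and 607.9 CPM in the saline libraries, against 430.9 and 721.8 CPM in the immune complex libraries. The lowest and the highest value both came from the immune complex group, and both saline values lay between them. The means were 566.0 ± 59.3 and 576.3 ± 205.7 CPM (log2 difference 0.03 ± 0.27, 95% interval -0.62 to 0.67; edgeR adjusted p = 0.99997). Without immune complex replicate 2 the log2 difference of Plau was -0.39.

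Plat, which encodes tissue-type plasminogen activator, lies on chromosome 8 (22757744 to 22782847, plus strand, 14 exons). It stood at 93.6 and 51.2 CPM in the saline libraries, against 65.4 and 84.2 CPM in the immune complex libraries. Here the saline libraries held both the highest and the lowest value. The log2 difference was 0.05 ± 0.30 (95% interval -0.68 to 0.77; edgeR adjusted p = 0.99997), and leaving out a saline library gave -0.33 (without replicate 2) or 0.55 (without replicate 1). The ratio of Plau to Plat in RPKM, 6.06 and 12.9 in the saline libraries, against 7.11 and 9.23 in the immune complex libraries, differed more within saline than between the groups.

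Plaur encodes the urokinase receptor, which holds urokinase at the cell surface, and lies on chromosome 7 (24462500 to 24475873, plus strand, 7 exons). It had 131 and 112 reads in the saline libraries, against 83 and 89 reads in the immune complex libraries, which are 6.44 and 5.30 CPM against 3.72 and 4.21 CPM. Both immune complex values were below both saline values. The means were 5.87 ± 0.810 and 3.96 ± 0.344 CPM, a log2 difference of -0.57 ± 0.28 (SE; unadjusted p = 0.0814, adjusted p = 0.99997 in edgeR), with a 95% interval of -1.23 to 0.09. With single libraries left out the estimate stayed between -0.71 and -0.42. The ratio of Plau to Plaur in RPKM was 52.5 and 75.2 in the saline libraries, against 79.8 and 118.6 in the immune complex libraries. Monocytes and neutrophils are known to carry the urokinase receptor, and all 10 macrophage and monocyte markers had higher estimates (median 0.42), the opposite sign to Plaur. Their summed level was 157.5 and 167.3 CPM in the saline libraries, against 187.8 and 223.0 CPM in the immune complex libraries. Of 8 neutrophil markers 2 had enough reads, Mpo was at 0 in all libraries, and the list summed to 0.993 to 2.15 CPM. The part of these cells in the Plaur values was not tested.

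**Figure D2:**
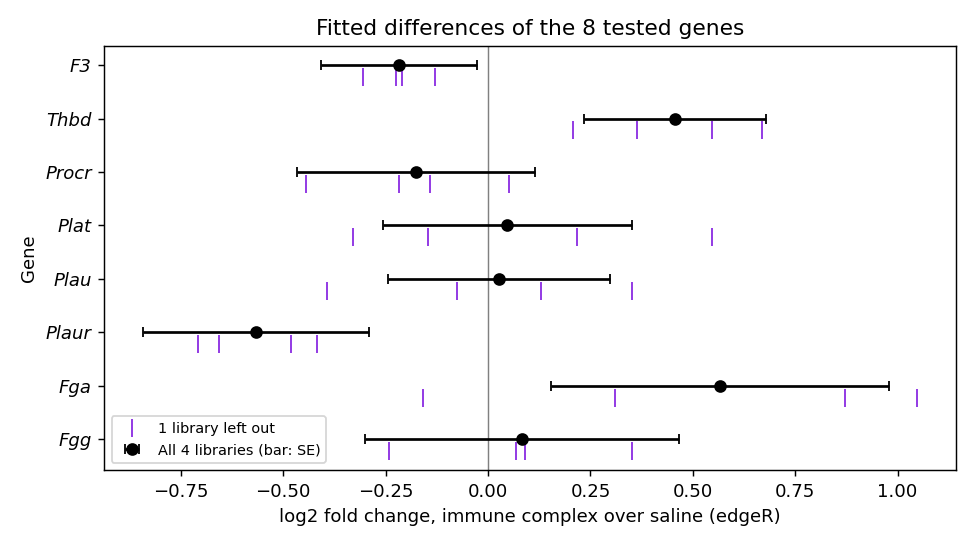
Log2 fold changes of the 8 tested genes, immune complex over saline, from edgeR with standard errors (black), and the same fit with 1 library left out at a time (purple ticks). Thbd stays above 0 and F3 and Plaur stay below 0 in every such fit, whereas Procr, Plat, Plau, Fga and Fgg fall on both sides. The groups of Thbd, F3 and Plaur do not overlap, so their sign stays when 1 library is left out, and this adds nothing to that separation.

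The windows around the annotated starts of F3 and Plaur, the 2 genes that were lower in both immune complex libraries, are shown with the letters TGANTCA, the sequence that AP-1 factors are known to bind, in capitals. AP-1 is the dimer of Fos and Jun proteins, and the letters read the same on both strands. Each window runs from 250 bases before to 50 bases after the start in the RefSeq annotation of GRCm38.p6, 5′ to 3′ on the strand of the gene. The gene positions given above are the authors', and for Plaur and Procr their starts differ from the RefSeq ones used here. F3 is at chr3:121723287-121723586 and Plaur at chr7:24462233-24462532, both on the plus strand.
F3: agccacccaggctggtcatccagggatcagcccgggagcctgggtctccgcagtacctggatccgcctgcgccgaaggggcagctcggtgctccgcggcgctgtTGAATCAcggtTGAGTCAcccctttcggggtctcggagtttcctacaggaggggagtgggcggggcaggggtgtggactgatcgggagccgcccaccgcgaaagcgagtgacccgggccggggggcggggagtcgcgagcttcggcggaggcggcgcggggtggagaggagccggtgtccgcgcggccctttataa
Plaur: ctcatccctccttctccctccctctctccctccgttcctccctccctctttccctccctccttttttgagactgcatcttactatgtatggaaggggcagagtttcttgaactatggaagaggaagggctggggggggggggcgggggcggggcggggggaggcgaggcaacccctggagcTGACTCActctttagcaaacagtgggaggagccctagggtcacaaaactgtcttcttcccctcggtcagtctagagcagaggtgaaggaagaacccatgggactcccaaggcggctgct
The F3 window holds 2 matches, TGAATCA and TGAGTCA, which begin 146 and 135 bases before the start. The Plaur window holds 1, TGACTCA, which begins 69 bases before the start. Procr has TGACTCA 154 bases before its start. None of these genes passed the test in edgeR, and whether the letters go with the direction of an estimate was not tested. Among all 32817 windows of this length 7.81% held such letters. A match of letters is a description and does not show that a factor binds there in these kidneys. Of the 9 genes, 6 had an entry in the promoter table, and Thbd, Plat and Plau did not.

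The 3 fibrinogen genes lie side by side on chromosome 3, in the order Fgg (83007859 to 83015053, plus strand), Fga (83026153 to 83033615, plus strand) and Fgb (83042247 to 83049803, minus strand), with 11099 and 8631 bases between them. No other listed gene overlapped any of the 9 genes in the authors' table. Fibrinogen is a hexamer that needs each of its alpha, beta and gamma chains in equal number. In these kidneys the 3 genes were not read equally. Fga had 184 and 284 reads in the saline libraries, against 225 and 492 reads in the immune complex libraries, Fgg 32 and 34 against 30 and 43, and Fgb 4 and 9 against 1 and 7.

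Per length, Fga exceeded Fgg in every library, by 3.16 and 4.72 times in the saline group, against 4.97 and 8.78 times in the immune complex group. Fga exceeded Fgb by 44.8 and 19.9 times in the saline group, against 109.7 and 239.9 times in the immune complex group, but these ratios rest on 1 to 7 exon reads of Fgb. The exact 95% Poisson interval of the Fgb count was 1.09 to 10.2 reads in saline replicate 1, 4.12 to 17.1 in saline replicate 2, 0.0253 to 5.57 in immune complex replicate 1 and 2.81 to 14.4 in immune complex replicate 2. Such intervals hold the error of counting alone, because without molecular identifiers several reads can stem from 1 molecule. They overlap between the groups, and no difference in Fgb was detectable at this depth.

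Fga, the gene of the alpha chain, stood at 9.05 and 13.4 CPM in the saline libraries, against 10.1 and 23.3 CPM in the immune complex libraries. The library numbered 2 was the higher one in both groups, and immune complex replicate 1 lay between the saline values. The means were 11.2 ± 3.10 and 16.7 ± 9.31 CPM, a log2 difference of 0.57 ± 0.41 (95% interval -0.42 to 1.55; edgeR adjusted p = 0.99997). That estimate rests on immune complex replicate 2: without it the value was -0.16, and without immune complex replicate 1 it was 1.05. Fgg, of the gamma chain, stood at 1.57 and 1.61 CPM in the saline libraries, against 1.34 and 2.03 CPM in the immune complex libraries. The immune complex values of Fgg lay on both sides of the saline values (log2 difference 0.08 ± 0.38, 95% interval -0.83 to 0.999). From exon reads alone the Fgg estimate was -0.27.

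Fga was the only one of the 8 tested genes whose log2 CPM spanned 1 or more over the 4 libraries (1.35). The genes with the most similar profile, among 13080 named genes with a mean of at least 1 CPM over the libraries, were Pydc4 and Kap, with root mean square differences of 0.063 and 0.070 in centred log2 CPM over 4 libraries. Kap, the kidney androgen-regulated protein gene of the proximal tubule, stood at 3714 and 5776 CPM in the saline libraries, against 3917 and 8797 CPM in the immune complex libraries. Pydc4 stood at 0.984 and 1.61 against 1.12 and 2.505 CPM. With 4 libraries many genes share any given order, so this is a description of likeness only.

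Hepatocyte RNA was checked because liver is the main source of fibrinogen. The 10 hepatocyte markers summed to 58.2 and 77.7 CPM in the saline libraries, against 73.6 and 66.5 CPM in the immune complex libraries, and 3 of them (Apoa1, Ahsg and Hpx) had too few reads to be tested. Of the 7 tested, 4 had higher and 3 lower estimates, with a median log2 difference of 0.09. Alb, the gene of albumin, stood at 10.6 and 14.3 CPM in the saline libraries, against 9.77 and 6.85 CPM in the immune complex libraries. Serpina1a, the marker with the most reads, stood at 30.4 and 29.2 CPM in the saline libraries, against 38.0 and 39.6 CPM in the immune complex libraries. The part of hepatocyte RNA in the Fga values was not tested. The proximal tubule list had a median log2 difference of -0.03. F2, the gene of prothrombin, and Plg, the gene of plasminogen, had at most 6 and 2 reads in any library.

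The windows of the 3 fibrinogen genes are shown because their levels in kidney differ so much, with matches to 3 sets of letters in capitals on either strand. The first is GTTAAT, a site piece known for the liver and kidney factor HNF1, which reads ATTAAC on the opposite strand. The second is CTGGGAA, a form of the site of the acute phase factor STAT3, which reads TTCCCAG on the opposite strand. The third is TGANTCA as above. Fga is at chr3:83025903-83026202 and Fgg at chr3:83007474-83007773 on the plus strand, and Fgb at chr3:83049814-83050113 on the minus strand, all in GRCm38.p6 from RefSeq. Distances are to the RefSeq starts, which for Fgb and Fgg differ from the authors' gene positions given above.
Fga: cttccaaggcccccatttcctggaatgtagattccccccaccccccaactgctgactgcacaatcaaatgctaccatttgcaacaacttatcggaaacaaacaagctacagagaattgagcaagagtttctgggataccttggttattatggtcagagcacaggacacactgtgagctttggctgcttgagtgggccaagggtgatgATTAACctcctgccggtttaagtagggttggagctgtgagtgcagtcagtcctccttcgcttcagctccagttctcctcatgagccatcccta
Fgb: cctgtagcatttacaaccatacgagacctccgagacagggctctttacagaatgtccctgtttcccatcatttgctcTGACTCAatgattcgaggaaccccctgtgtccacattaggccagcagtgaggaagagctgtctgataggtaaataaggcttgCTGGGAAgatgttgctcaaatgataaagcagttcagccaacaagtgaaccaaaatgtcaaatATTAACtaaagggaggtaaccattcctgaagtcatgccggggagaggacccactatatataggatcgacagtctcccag
Fgg: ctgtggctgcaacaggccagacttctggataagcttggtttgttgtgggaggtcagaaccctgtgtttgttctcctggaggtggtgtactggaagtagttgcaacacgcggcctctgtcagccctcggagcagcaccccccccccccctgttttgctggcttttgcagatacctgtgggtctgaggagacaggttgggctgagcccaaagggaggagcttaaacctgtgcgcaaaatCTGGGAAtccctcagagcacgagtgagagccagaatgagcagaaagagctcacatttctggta
ATTAAC begins 43 bases before the start of Fga and 29 bases before that of Fgb, and the Fgg window has no match to it. CTGGGAA begins 91 bases before the start of Fgb and 13 bases before that of Fgg, with no match in the Fga window. Fgb also has TGACTCA 173 bases before its start, while Fga and Fgg have no match to TGANTCA. The HNF1 letters were present in 7.10% of all windows and the STAT3 letters in 11.1%. The window of Fgb, the gene with the fewest reads, is the only 1 of these 3 with all 3 sets of letters. Whether the letters go with the level of a gene was not tested.

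Reads that cross an exon junction come from spliced RNA and were read as a second measure. Of all exon reads of a library, 17.8% and 16.9% crossed a junction in the saline group, against 16.2% and 16.4% in the immune complex group. For Plau the share was 20.9% and 20.01% in the saline libraries, against 16.1% and 19.3% in the immune complex libraries. Intervals by the Wilson method (95%, counting error only) were 15.3% to 16.8% for immune complex replicate 1 and 18.7% to 19.96% for replicate 2, and the library with the lowest Plau level also had the smallest spliced share. For Procr the share was 18.0% and 16.5% in the saline libraries, against 10.2% and 7.76% in the immune complex libraries, from 9 to 20 junction reads. All 4 Procr intervals overlap (12.0% to 26.2%, 10.7% to 24.6%, 5.47% to 18.3% and 4.14% to 14.1%). Plat kept a share of 23.1% to 25.5% in the 4 libraries, and Fga one of 9.38% to 12.4%.

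Reads in introns were few for most of these genes, at 0% to 3.53% for F3, Procr, Plat, Plau, Fga and the single-exon gene Thbd. Plaur had 8.40% and 9.82% intron reads in the saline group, against 14.5% and 14.6% in the immune complex group. Its intron reads numbered 11, 11, 12 and 13, so the lower Plaur count in immune complex libraries lay in exons (120, 101, 71 and 76 reads). Fgg had 15.6% and 17.6% intron reads in the saline group, against 30.0% and 39.5% in the immune complex group; their Wilson intervals were 6.86% to 31.8%, 8.35% to 33.5%, 16.7% to 47.9% and 26.4% to 54.4%. Intron reads of all genes were 7.39% to 9.96% of a library. Of the 7 Fgb reads in immune complex replicate 2, 6 were in introns.

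**Figure D3:**
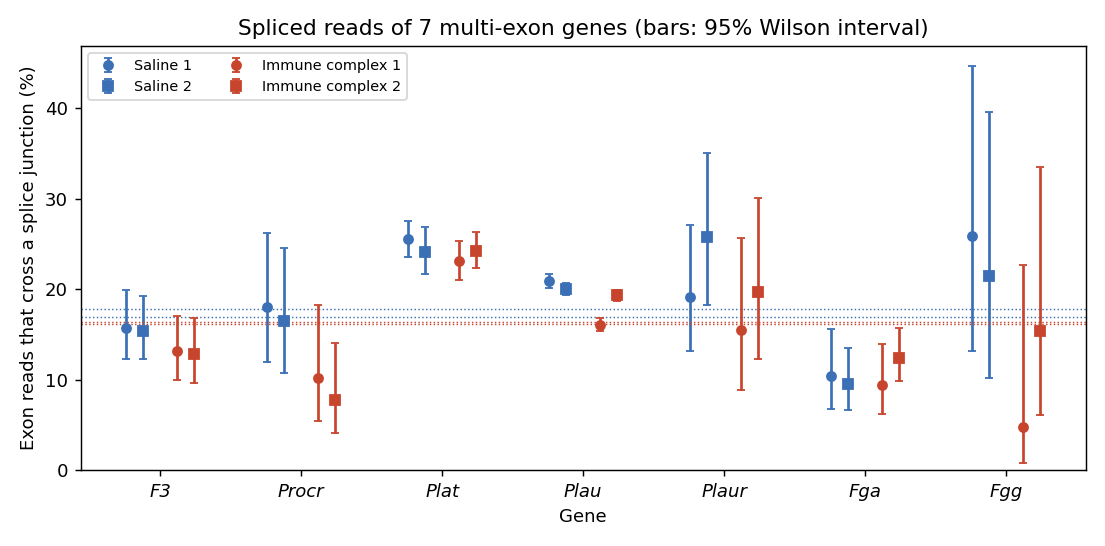
Percent of exon reads that cross a splice junction for 7 multi-exon genes in the saline (blue) and immune complex libraries (red), circles for replicate 1 and squares for replicate 2, with 95% Wilson intervals; dotted lines are the shares over all genes of each library. Plat lies above the lines at 23.1% to 25.5%, Fga below them at 9.38% to 12.4%, and the intervals of Procr, Plaur and Fgg are wide.

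The other genes of clotting and fibrinolysis were read from 5 lists holding 46 genes, of which 34 had enough reads. None passed in edgeR (0 of 34, against 0% of all genes), DESeq2 or limma-voom, and 1 (Vwf) had an unadjusted p under 0.05 in edgeR. Estimates were higher for 23 and lower for 11, with a median log2 difference of 0.07. Groups did not overlap for 7 higher and 2 lower genes, beside 15.4% higher and 14.6% lower among all tested genes, and nothing particular to these lists is read from that split.

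Of 15 procoagulant factors 8 were tested, with 6 higher and 2 lower estimates and a median of 0.06. Most liver-made factors were nearly unread, and F2, F7, F9, F10, F11, F12 and Klkb1 had too few reads to be tested. Kidney libraries did hold F13b, which encodes the carrier subunit of factor XIII, at 85.2 to 122.0 CPM, and Kng2, a kininogen gene, at 337.1 to 439.6 CPM. F13a1, the catalytic subunit of factor XIII that crosslinks fibrin, stood at 2.12 and 3.93 CPM in the saline libraries, against 4.44 and 6.10 CPM in the immune complex libraries (log2 difference 0.80 ± 0.39). From exon reads alone the F13a1 estimate was 2.27, but it rests on low exon levels. These were 0.0388 and 0.255 RPKM in the saline libraries, against 0.257 and 1.13 RPKM in the immune complex libraries. They differed far more between libraries than the CPM values did. The CPM values and the main estimate of F13a1 therefore hold many intron reads, above all in saline replicate 1, and are not a level of spliced RNA. From all gene reads, with single libraries left out, the F13a1 estimate ranged from 0.42 to 1.31. Neither the main nor the exon estimate passed the test after adjustment. F5, the cofactor of factor Xa, stood at 4.72 and 6.10 CPM against 7.26 and 6.71 CPM (log2 difference 0.37 ± 0.26). Vwf, the carrier of factor VIII and a platelet adhesion protein, stood at 14.7 and 6.62 CPM in the saline libraries, against 4.48 and 2.505 CPM in the immune complex libraries. Its log2 difference was -1.61 ± 0.46 (unadjusted p = 0.0115, adjusted p = 0.868 in edgeR). Without saline replicate 2 it was -2.08, with saline replicate 1, the library with the highest Vwf level, as the only saline value. It was -0.92 without saline replicate 1.

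Of 10 coagulation inhibitors 8 were tested, with 6 higher and 2 lower estimates and a median of 0.15, and Serpind1 and Serpina5 had no reads in any library. Tfpi2, a relative of the tissue factor pathway inhibitor, stood at 9.64 and 9.08 CPM in the saline libraries, against 11.8 and 13.3 CPM in the immune complex libraries (log2 difference 0.42 ± 0.21). Proz, whose product helps to inhibit factor Xa, had a log2 difference of -0.43 ± 0.36. The thrombin receptor F2r stood at 21.7 and 20.2 CPM in the saline libraries, against 18.8 and 24.4 CPM in the immune complex libraries (log2 difference 0.05 ± 0.21). Its relatives F2rl1 and F2rl3 had log2 differences of -0.17 ± 0.26 and -0.20 ± 0.53, and F2rl2 had no reads.

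In the plasminogen system 10 of 12 genes were tested, with 8 higher and 2 lower estimates and a median of 0.28. Serpinf2, the gene of the plasmin inhibitor antiplasmin, stood at 55.7 and 69.7 CPM in the saline libraries, against 74.7 and 91.5 CPM in the immune complex libraries (log2 difference 0.41 ± 0.20). Serpini1, an inhibitor of tissue-type activator known from neurons, had a log2 difference of 0.69 ± 0.33. Anxa2, which encodes a cell surface protein that binds plasminogen and tissue-type activator, stood at 91.9 and 58.0 CPM in the saline libraries, against 58.2 and 60.5 CPM in the immune complex libraries. Only saline replicate 1 was high, and the log2 difference of -0.34 ± 0.24 became 0.033 without that library. The vitamin K cycle and factor export genes were all tested (5 of 5, median -0.02). Among them Ggcx, the carboxylase, had a log2 difference of -0.15 ± 0.18, Vkorc1l1 one of 0.21 ± 0.21 and Mcfd2, a cargo receptor subunit for factors V and VIII, one of -0.03 ± 0.18.

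**Figure D4:**
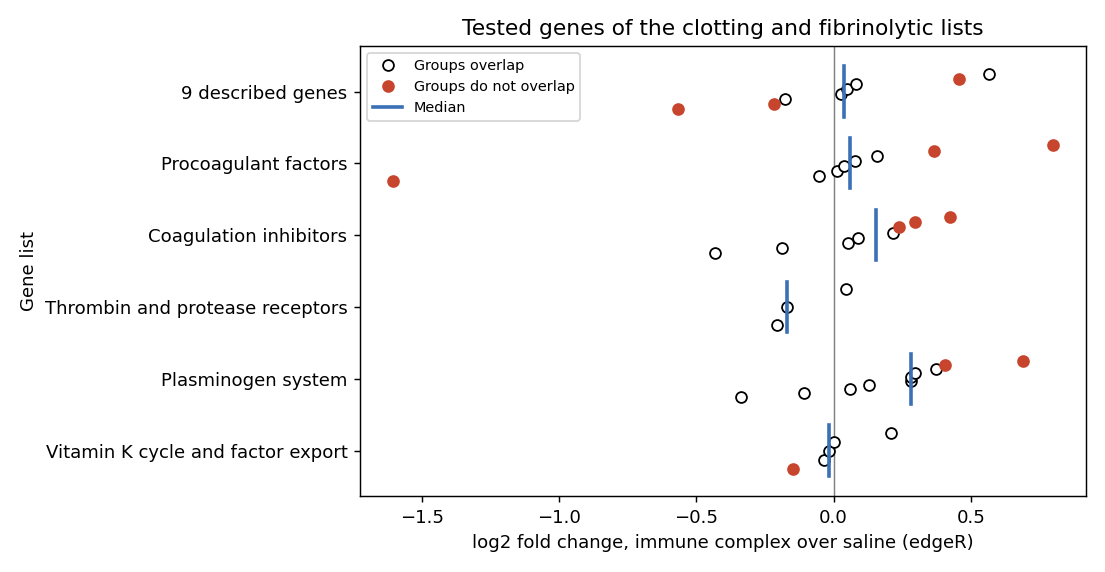
Log2 fold changes (edgeR, immune complex over saline) of the tested genes of the 9 described genes and the 5 pathway lists; filled points are genes whose groups do not overlap and blue lines are list medians. Medians lie between -0.17 and 0.28, and Vwf (-1.61) lies farthest from 0.

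Platelets carry fibrinogen, and their RNA was checked last. Of 10 platelet markers 6 had enough reads, with 3 higher and 3 lower estimates and a median log2 difference of 0.05. Groups did not overlap for Itga2b (log2 difference -0.90) and Gp6 (0.88), beside 30.0% of all tested genes. Gp6 had 15 and 8 reads in the saline libraries, against 26 and 19 in the immune complex libraries. Its RPKM, which is built from exon reads, was 0 in every library, so the Gp6 estimate rests on intron reads and does not measure spliced RNA. The 10 markers summed to 15.7 and 11.8 CPM in the saline libraries, against 11.2 and 8.93 CPM in the immune complex libraries. That lower sum follows Itga2b and is not a trait of the whole list. Itga2b, the platelet integrin chain that binds fibrinogen, made up more of that sum than any other marker in each library and stood at 11.5 and 7.33 CPM against 6.09 and 3.97 CPM, while Pf4 and Ppbp were below 1 CPM in every library. In the authors' deposited table, 80 of 16128 genes (0.496%) have an adjusted p under 0.05, and none of the 8 genes of this set that it lists is among them. Turned to immune complex over saline, the authors' deposited table gives Thbd a log2 fold change of 0.32 and Plaur one of -0.31, with adjusted p-values of 0.99996. Fgb is not listed there. With DESeq2 as run here, the same reads gave Thbd 0.45 and Plaur -0.58. The authors' values may thus be on another scale, and the reason for their smaller size was not tested.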

How the data were processed

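Kidney RNA was sequenced in 2 saline and 2 immune complex libraries. Per the submitters' processing notes, STAR 2.5.2b, DESeq2 and the build GRCm38 were used, with no role stated. The read counter, the annotation and the use of strand are not stated in these sources. For each sample the authors deposited raw read counts per gene (all, unique, exon, junction and intron reads), per the file headers. For 100% of genes the gene total was the sum of exon and intron counts. The authors' RPKM followed from exon reads and exon length, within a relative 0.0001, for 99.5% of genes with exon reads. A further deposited table gives the authors' log2 fold change, test score, p-value and mean normalized signal per gene. It divides saline by immune complex: the sign runs against the reads in 80 of 80 called genes.

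Gene totals were tested with edgeR 4.0.16 in R 4.3.3 (filterByExpr by group, TMM, glmQLFit, glmQLFTest) and Benjamini-Hochberg adjustment at 0.05, with no block, because the labels do not tie the replicate numbers to pairs. Of 38924 genes 16334 were tested. SE is the log2 difference over the root of F, and 95% intervals use t with 6.61 degrees of freedom. DESeq2 1.42.0 and limma 3.58.1 (voom) were alternatives. The fitting script was tested on simulated data. Replicates of a group differed by more than counting noise (chi-square over degrees of freedom of 18.2 for saline and 61.2 for immune complex), so neither pair is 1 library under 2 names. The text names the 9 genes, the 3 lowest p-values of each of 5 pathway lists, Vwf, Plg, Tfpi, Pros1 and F2r, and the 2 closest profiles of any of the 9 that spans 1 or more in log2 CPM. 1 gene of that rule is not reported here and was left out of its list. All 177 list entries were found, Adgre1 by gene ID. Proc, F10, F13b, Kng2 and the single markers were named after their values were seen. The genes and lists were chosen with earlier results of these data known.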

Additional observations from a re-analysis of the deposited data

How the results depend on the processing

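Of the 9 genes and the 34 tested pathway genes, none passed the threshold under edgeR with RLE factors, DESeq2, limma-voom, no filter on low counts, exon reads or unique gene reads, nor with the replicate block. With single libraries left out the exception was Vwf without saline replicate 2, so the number of pathway genes past the threshold ranged from 0 to 1. Over all genes the count was 93 with DESeq2, 2 without the filter and 1 with unique gene reads. It ranged from 0 to 281 with single libraries left out (46 without saline replicate 1, 281 without saline replicate 2). With the replicate block it was 55. With the crossed pairing, added after the data were seen because same-numbered libraries deviated in opposite directions (correlation -0.13 across genes), it was 160. The labels do not make the numbers pairs. Of the 8 tested genes 5 had a higher estimate, a number that ranged from 1 (Thbd, without immune complex replicate 2) to 6 with single libraries left out. No scaling moved the median of all genes by more than 0.02 on the log2 scale.

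The sign of some estimates turned. Plau was -0.017 in limma-voom, with the replicate block and with the crossed pairing, and Fgg was -0.27 with exon reads. With single libraries left out, Plau ranged from -0.39 to 0.35 (-0.08 without saline replicate 1), Plat from -0.33 to 0.55 (-0.15 without immune complex replicate 2), Procr from -0.44 to 0.051, Fga from -0.16 to 1.05 and Fgg from -0.24 to 0.35. Likewise Anxa2 ranged from -0.64 to 0.033, F2rl1 from -0.52 to 0.11, F2rl3 from -0.68 to 0.16, F2r from -0.15 to 0.22, Vkorc1l1 from -0.018 to 0.41, Mcfd2 from -0.17 to 0.087 and Tfpi from -0.11 to 0.30. The cause was not tested. Where a group kept 1 library, it was assumed to vary like the other group. Fgb had a log2 difference of -0.74 ± 0.90 (SE) without the filter, on 1 to 9 reads a library.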

Other observations

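Among the tested pathway genes not described so far, A2m had the widest difference between replicates of a group on the log2 CPM scale, and it was chosen after its values were seen. A2m, the gene of the broad protease inhibitor alpha-2-macroglobulin, was at 0.984 and 4.82 CPM in the saline libraries, against 0.627 and 6.47 CPM in the immune complex libraries. Its log2 difference between the groups was 0.28 ± 1.04 (SE).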
